A study of Mus musculus with 8 samples.

Results

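The change in messenger RNA that accompanies oocyte maturation was described here by comparing mouse oocytes at metaphase II (MII) with oocytes at the germinal vesicle stage (GV). The 4 oocyte libraries, 2 of GV and 2 of MII, were taken from a series of 8 libraries by their sample labels, and 25045 of the 48440 listed genes passed the filter on low counts and were tested. Donor mice received 5 units of PMSG, a gonadotropin, 48 h before an injection that the labels do not name, and GV oocytes were taken into MEM with 2 µM milrinone, a phosphodiesterase inhibitor that holds meiosis in prophase. The labels of the MII libraries repeat that protocol and add no maturation step, and neither a strain, an age nor the number of pooled oocytes was given in the sources used here. Both groups are oocyte RNA, extracted with TRIzol and sequenced in paired ends on stranded libraries.

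A fully grown GV oocyte has stopped transcription and carries a store of maternal mRNAs. During maturation the nucleus breaks down, Cdk1 with cyclin B drives the first division, and the Mos and MAP kinase pathway holds the egg at the second metaphase. Since little new RNA is made, maternal mRNAs are then regulated mainly by the length of their poly(A) tails, by storage in particles and by decay, in which the cytoplasmic polyadenylation element near the 3′ end and its binding protein Cpeb1 take part. Whether these libraries selected poly(A) RNA was not given in the sources used here, so a change in the number of molecules and a change in their tails cannot be told apart.

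The libraries held 79465800 and 187501000 estimated counts in GV and 75157500 and 196788000 in MII, so replicate 2 was the deeper library of both stages. All 10 oocyte markers were above 1 TPM in at least 1 stage, and edgeR called 3 of them higher in MII and 4 lower. Gdf9, a growth factor of the oocyte, had 5022 and 4884 TPM in GV and 5771 and 8516 TPM in MII. Oosp1, an oocyte-secreted protein, had 3750.2 and 2947 TPM in GV and 8863 and 7821 TPM in MII. The lower markers were Zp3, Nlrp5, Figla and Npm2, whose levels are given below. Of 19 markers of cumulus and granulosa cells, which surround the oocyte, 5 were under 1 TPM in both stages, and their summed level was 272 and 497 TPM in GV and 491 and 792 TPM in MII. Inha, a subunit of inhibin made by granulosa cells, stood at 4.66 and 105 TPM in GV and 0.215 and 1.77 TPM in MII, and was thus high in 1 GV library alone. Summed markers of blood cells lay between 3.14 and 5.11 TPM in the 4 libraries. Those of fibroblasts stood at 1.33 and 3.21 TPM in GV and 0.608 and 0.245 TPM in MII. Of the 7 fibroblast markers found, 6 were under 1 TPM in both stages. edgeR called 4 of the 6 tested lower, with a median log2 fold change of −7.57 that rests on these low levels. On log2(TPM + 1), a scale described below, 0 of them were called lower and the median was −0.20. Over all genes tested, edgeR called 17.4% higher and 22.2% lower. What part of the results such other cells carry was not tested.

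MII RNA was less even than GV RNA over all listed genes, coding or not. At 1 TPM (the share of a gene's transcripts among all transcripts after division by length, scaled to a fixed total) or more stood 13936 and 13941 genes in GV and 10272 and 10908 genes in MII. The 100 most abundant genes held 27.4% and 29.0% of TPM in GV and 43.5% and 44.0% in MII. The 13 mRNAs of the mitochondrial genome summed to 17410 and 14478 TPM in GV and 101357 and 88271 TPM in MII. In edgeR's quasi-likelihood test at an adjusted p under 0.05, 4357 genes were higher in MII (17.4% of those tested) and 5572 were lower (22.2%), 39.6% in either direction. At least 8-fold higher and called were 1199 genes (4.79%), and 2982 (11.9%) were at least 8-fold lower. The stages did not overlap in scaled counts for 7347 genes higher in MII (29.3%) and 10452 genes lower in MII (41.7%). At least 2-fold higher and called were 4336 genes (17.3%), and 5567 (22.2%) were at least 2-fold lower. Of the genes tested, 3382 had no count in either MII library, against 1120 with none in either GV library. The filter on low counts used all 8 libraries, so the genes tested include some that passed it through the other libraries of the series. With the oocyte libraries alone, 19183 genes were left to test, and 5170 were called higher and 6162 lower.

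Directions depend on the scale. The test above scaled libraries by TMM, which sets the trimmed bulk of genes to no change, and its log2 fold changes exceeded those of log2(TPM + 1) by a median of 1.06 over the 13118 genes with a mean of at least 1 TPM, so that a gene of equal TPM in both stages lay near 1.06 on the log2 scale used below. On log2(TPM + 1), limma called 2408 genes higher and 8164 lower, and 2340 higher and 4925 lower calls were shared by both scales, with 9 genes called in opposite directions. A spike-in was not given in the sources used here, and amounts per oocyte cannot be stated from either scale. Each log2 fold change below is on the TMM scale with its SE, and each level is in TPM per library (replicate 1, then replicate 2). Counts of members of a gene list are given on both scales. Shares of genes called by level and by transcript end are on the TMM scale alone, as are medians by level, length and GC content. A log2 fold change below 0 means lower in MII, values in parentheses after the levels are log2 fold changes ± SE, and genes so described passed the edgeR test unless said otherwise.

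Calls of coding genes differed by their mean level over both stages. That mean holds the MII level, which also enters the fold change, so level and change are not independent here. Of the 1644 coding genes at a mean of 100 TPM or more, 56.7% were higher in MII and 24.9% lower, with a median log2 fold change of 1.70. Among 5091 coding genes at 10 to 100 TPM the shares were 36.2% and 36.1%, and among 4401 at 1 to 10 TPM they were 19.2% and 36.5%. Among 6367 under 1 TPM they were 5.29% and 13.3%. The median over all genes tested was −0.53.

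**Figure D1:**
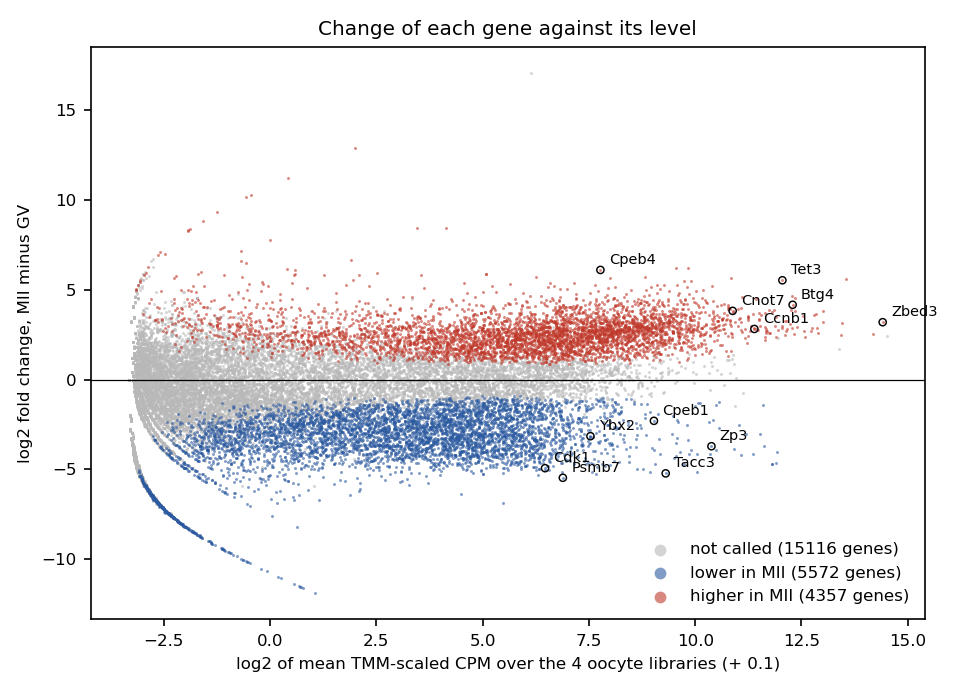
Log2 fold change of each tested gene between MII and GV (vertical) against the log2 of its mean TMM-scaled CPM over the 4 oocyte libraries (horizontal), with calls of the edgeR test in colour. The 4357 genes higher and 5572 lower in MII spread over the whole range of levels, and the arc at the lower left holds genes with no count in MII.

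Of the coding genes with the largest rises at 10 TPM or more in MII, most of those named here were under 10 TPM in GV. Foxn2, a forkhead transcription factor, had 6.52 and 8.08 TPM in GV and 291 and 164 TPM in MII (6.22 ± 0.50). Gtf2a1, a subunit of the general transcription factor TFIIA, had 6.23 and 9.87 TPM in GV and 336 and 192 TPM in MII (6.21 ± 0.52). Cpeb4, an RNA-binding protein of the CPEB family that takes part in polyadenylation late in meiosis, had 3.15 and 2.15 TPM in GV and 103 and 56.1 TPM in MII, a log2 fold change of 6.10 ± 0.49 with an adjusted p of 0.000518. In all these genes each MII library lay far above each GV library. Tet3, the dioxygenase that oxidises 5-methylcytosine in the zygote, had 43.6 and 31.6 TPM in GV and 823 and 761 TPM in MII (5.52 ± 0.45). Ptp4a1, a phosphatase, had 32.4 and 47 TPM in GV and 952 and 677 TPM in MII (5.46 ± 0.46). Mybl1, a transcription factor known from male meiosis, had 3.06 and 1.66 TPM in GV and 42.9 and 27.8 TPM in MII (5.39 ± 0.59). Spp1, which encodes the secreted protein osteopontin, was at 0 and 0.211 TPM in GV and at 14.3 and 25.8 TPM in MII, and had the highest log2 fold change of the genes chosen by size, 8.42 ± 1.06. The steepest falls among coding genes at 10 TPM or more in GV included C130074G19Rik, known by its clone name, which had 54.1 and 44.1 TPM in GV and 0.229 and 0.158 TPM in MII (−6.85 ± 0.45). Tsacc, a cochaperone for a testis-specific kinase, had 70.6 and 58 TPM in GV and 0.291 and 0.89 TPM in MII (−5.66 ± 0.72), and Dppa4, a nuclear factor of early embryos, had 20.6 and 21.1 TPM in GV and 0.12 and 0.255 TPM in MII (−5.52 ± 0.48). Each of these genes was under 1 TPM in both MII libraries.

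The group counts across the gene lists spread widely, from mRNAs of the mitochondrial genome at the top to cytosolic ribosomal proteins at the bottom. Beside them, 17.4% of all 25045 genes tested were higher and 22.2% lower by TMM. On both scales, 2340 of all genes tested were higher and 4925 lower.

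**Figure D2:**
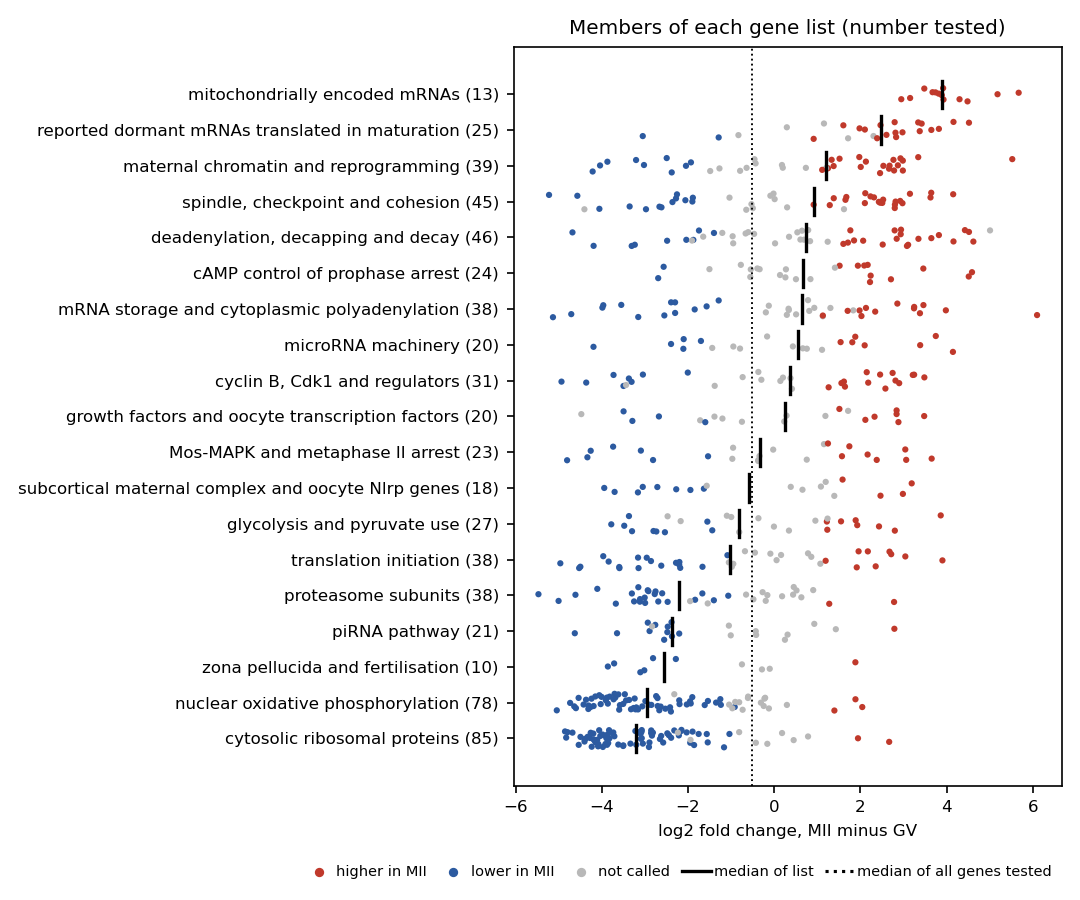
Log2 fold change between MII and GV (horizontal) for each tested member of 19 gene lists (rows, with the number tested), coloured by the edgeR call, with the list's median as a bar. List medians run from −3.20 for cytosolic ribosomal proteins to 3.89 for mitochondrially encoded mRNAs, beside −0.53 for all genes tested (dotted line).

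mRNAs of the egg coat were lower in MII. Zp1, Zp2 and Zp3 encode the glycoproteins of the zona pellucida, which the growing oocyte secretes. Zp3 had 3001 and 3770.2 TPM in GV and 54.6 and 173 TPM in MII, a log2 fold change of −3.71 ± 0.60 with an adjusted p of 0.00126. Zp2 had 3464 and 2262 TPM in GV and 56.8 and 116 TPM in MII (−3.86 ± 0.62), and Zp1 had 1032 and 1196 TPM in GV and 47.7 and 75 TPM in MII (−3.01 ± 0.51). Zp1, Zp2 and Zp3 did not overlap between the stages, which held for 41.7% of all genes tested in the same direction. Cd9, the tetraspanin of the egg surface needed for fusion with sperm, had 177 and 167 TPM in GV and 7.25 and 11.8 TPM in MII (−3.11 ± 0.42). Of the 10 tested genes of the zona and fertilisation, 6 were lower on both scales and 1 was higher on the TMM scale only, with a median of −2.55. The higher gene was Itpr1, the receptor that releases calcium at fertilisation, at 59.1 and 16.9 TPM in GV and 67.3 and 61 TPM in MII (1.88 ± 0.54). Its adjusted p was 0.0645 without GV replicate 2, 0.0889 without MII replicate 1 and 0.0671 without MII replicate 2.

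Oocyte transcription factors went in both directions, and the growth factors Gdf9 and Bmp15 did not pass the test. Nobox, a homeobox factor that activates oocyte genes during growth, had 530.5 and 580.5 TPM in GV and 18.3 and 32.5 TPM in MII (−3.29 ± 0.41). Figla, a basic helix-loop-helix activator of the zona genes, had 55.8 and 63.3 TPM in GV and 1.85 and 2.94 TPM in MII (−3.50 ± 0.66). Lhx8, another factor of early oocyte growth, had 206 and 236 TPM in GV and 12.4 and 18.3 TPM in MII (−2.68 ± 0.40). These 3 factors fell, whereas Sohlh2, a helix-loop-helix factor of early follicles, rose from 4.05 and 4.22 TPM to 19.5 and 21.8 TPM (3.48 ± 0.47). Obox1, Obox2 and Obox5, oocyte homeobox genes of a multigene family whose reads the counting may split, rose by 2.84 to 2.88 on the log2 scale, and Obox2 had 3196 and 2273 TPM in GV and 8348 and 9244 TPM in MII. Gdf9 (levels above) stood at 1.71 ± 0.72 with an adjusted p of 0.0877, and it was called higher in 5 alternatives: relative log expression factors (adjusted p = 0.048), no count filter (0.00409), the oocyte libraries alone (0.00675), the replicate block (0.031) and DESeq2 (0.0142). Its partner Bmp15, at 2110.0 and 1018 TPM in GV and 257 and 555 TPM in MII (−0.75 ± 0.53), was called lower on log2(TPM + 1) (−1.95, limma adjusted p = 0.0159). Of 20 members tested, 7 were higher and 4 lower, 5 and 4 of them on both scales, and the median was 0.26 by TMM and −0.13 by log2(TPM + 1).

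Genes of the subcortical maternal complex, a protein assembly under the egg membrane needed for cleavage, gave mixed values. Ooep, one of its subunits, had 1408 and 1509.6 TPM in GV and 27.6 and 56.4 TPM in MII (−3.94 ± 0.62). Padi6, an enzyme of the cytoplasmic lattices, had 4057 and 4518 TPM in GV and 90.9 and 200.2 TPM in MII (−3.70 ± 0.56), and Khdc3, another subunit, had 139 and 142 TPM in GV and 3.22 and 12.6 TPM in MII (−3.16 ± 0.75). Zbed3, a member found at the same site, went the other way, with 3834 and 4099.6 TPM in GV and 16545 and 15938 TPM in MII (3.19 ± 0.39), and was among the 10 most abundant genes of MII. Bcl2l10, an oocyte-rich Bcl2 family gene outside this list and another of those 10, had 2139 and 2633 TPM in GV and 9325 and 10606 TPM in MII (3.22 ± 0.74). Of 18 members tested, 4 were higher and 8 lower, 3 and 8 of them on both scales, and without MII replicate 1 the lower count was 4. Nlrp5, the founding member, had 1502 and 719 TPM in GV and 99.4 and 121 TPM in MII (−2.27 ± 0.66). Its adjusted p was 0.0791 without GV replicate 1, 0.115 without MII replicate 1 and 0.0732 without MII replicate 2.

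**Figure D3:**
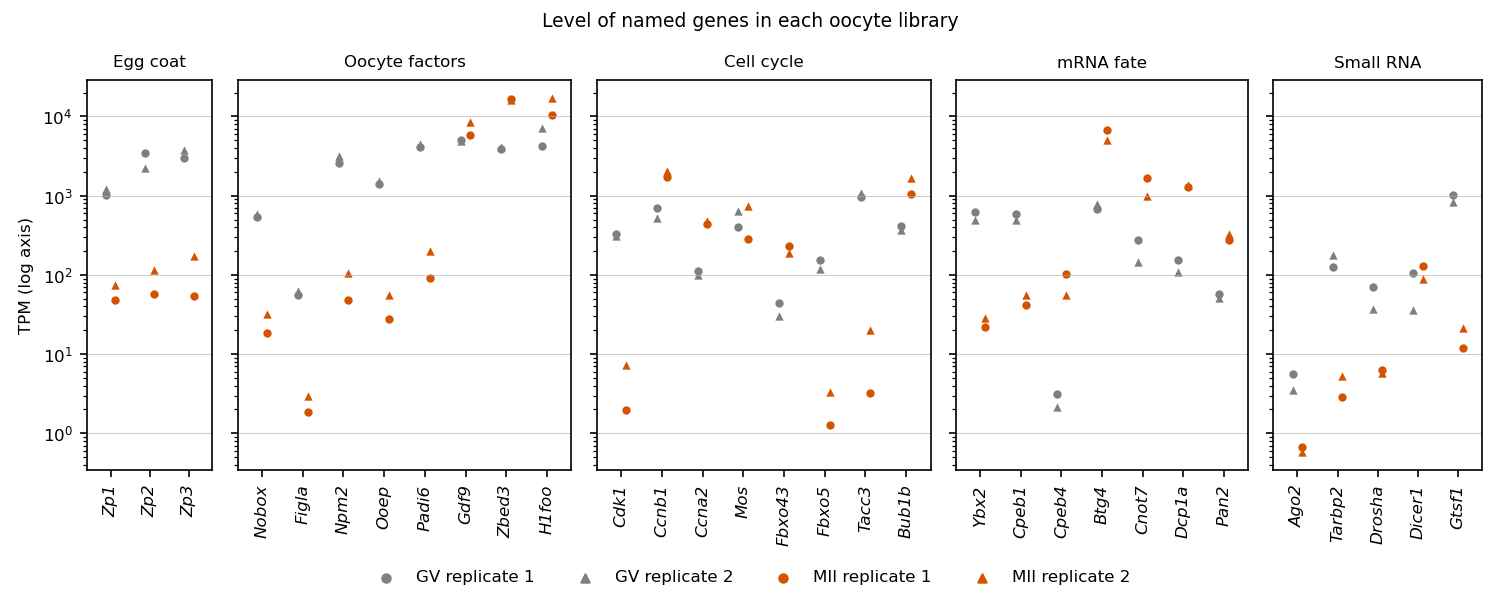
Level of named genes in TPM on a log axis (vertical) in each oocyte library, GV in grey and MII in orange, replicate 1 as circles and replicate 2 as triangles. Zona genes, Nobox, Figla, Cdk1, Fbxo5 and Tacc3 sit lower in both MII libraries, Btg4, Cpeb4, Dcp1a and Ccna2 sit higher, and Mos overlaps between the stages.

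The cAMP pathway keeps the oocyte in prophase, since cAMP from the receptor Gpr3 and the stimulatory G protein activates protein kinase A until the phosphodiesterase Pde3a removes it. Gpr3 did not pass the test, at 35 and 47.7 TPM in GV and 10.9 and 18 TPM in MII (−0.34 ± 0.38), but was called lower on log2(TPM + 1) (−1.47, limma adjusted p = 0.00638). Gnas, which encodes the alpha subunit of the stimulatory G protein and other products of the same locus, had 370.0 and 405 TPM in GV and 27.3 and 38.1 TPM in MII (−2.57 ± 0.39). Akap1, an anchor of protein kinase A on mitochondria, had 247 and 269.9 TPM in GV and 12.6 and 23.6 TPM in MII (−2.69 ± 0.39). Among subunits of the kinase, Prkaca, the catalytic subunit, had 29.9 and 41.3 TPM in GV and 108 and 102 TPM in MII (2.71 ± 0.36), and Prkar2a, a regulatory subunit, had 25.7 and 12.8 TPM in GV and 113 and 101 TPM in MII (3.46 ± 0.41). Among phosphodiesterases, Pde3b had 12.2 and 5.79 TPM in GV and 118 and 75.4 TPM in MII (4.59 ± 0.59), and Pde8a had 12 and 9.63 TPM in GV and 118 and 112 TPM in MII (4.51 ± 0.40). Pde3a itself had 46.1 and 16.1 TPM in GV and 60.7 and 56.2 TPM in MII (2.09 ± 0.52), with the call lost without GV replicate 2 (1.54, adjusted p = 0.0519), without MII replicate 1 (1.96, adjusted p = 0.0509) and on log2(TPM + 1). Of 24 members tested, 10 were higher and 2 lower, 6 and 2 of them on both scales, and log2(TPM + 1) called 7 lower.

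Cdk1 and its regulators went in both directions. Cdk1, the catalytic subunit of the maturation-promoting factor, on chromosome 10 from 69335146 to 69352938 (GRCm38), had 328 and 308 TPM in GV and 1.96 and 7.31 TPM in MII, a log2 fold change of −4.94 ± 0.64 with an adjusted p of 0.000626. Its partner Ccnb1, cyclin B1, on chromosome 13 from 100778650 to 100786570, had 708 and 524 TPM in GV and 1722 and 2039.6 TPM in MII (2.81 ± 0.39, adjusted p = 0.000729). The mRNA of the kinase was thus low in both MII libraries while that of the cyclin was high. Ccna2, cyclin A2, had 111 and 100.03 TPM in GV and 441 and 479 TPM in MII (3.21 ± 0.45), and Cks1b, a small subunit of the kinase complex, had 122 and 189.7 TPM in GV and 675 and 612 TPM in MII (3.25 ± 0.39). Ccnb3, the cyclin that promotes anaphase I, had 25.5 and 6.18 TPM in GV and 0.513 and 0.706 TPM in MII (−3.50 ± 0.74). Cdc25c, a phosphatase that activates Cdk1, had 10.7 and 10.3 TPM in GV and 0.0529 and 0.365 TPM in MII (−4.36 ± 0.76), and Ensa, an inhibitor of the opposing phosphatase PP2A, had 24.4 and 26.4 TPM in GV and 0.428 and 1.3 TPM in MII (−3.73 ± 0.50). Among subunits of the anaphase-promoting complex, Cdc27 had 45.1 and 18.3 TPM in GV and 201 and 113 TPM in MII (3.48 ± 0.54) and Anapc10 had 34.7 and 28.9 TPM in GV and 126 and 103 TPM in MII (2.90 ± 0.35). Pttg1, securin, had 2322 and 2213 TPM in GV and 4969 and 5116 TPM in MII (2.31 ± 0.34). Of 31 members tested, 14 were higher and 8 lower, 7 and 8 of them on both scales, and log2(TPM + 1) called 14 lower, so the excess of higher members does not hold on that scale.

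Among the genes that hold the egg at metaphase II, Mos, the kinase that starts the MAP kinase cascade, did not pass the test. It had 400.3 and 634 TPM in GV and 284 and 738 TPM in MII (1.15 ± 0.64, −0.14 on log2(TPM + 1)), and the stages overlapped. With the replicate number as a block it was called higher (edgeR adjusted p = 0.0333). Fbxo43, known as Emi2, the inhibitor of the anaphase-promoting complex in MII arrest, had 44.4 and 30.5 TPM in GV and 232 and 189 TPM in MII (3.65 ± 0.50). Its paralog Fbxo5, known as Emi1, which acts in prophase, had 154 and 118 TPM in GV and 1.27 and 3.3 TPM in MII (−4.81 ± 0.61). The 2 paralogs thus changed in opposite directions. Map2k1, the MAP kinase kinase, had 158 and 169.9 TPM in GV and 558 and 688 TPM in MII (3.04 ± 0.40), while Map2k2, its sister gene, had 34.7 and 81.9 TPM in GV and 0.339 and 2.8 TPM in MII (−4.26 ± 0.85). Calm2 and Calm3, genes for the calcium sensor calmodulin, which acts at egg activation, fell by 4.33 and 3.74 on the log2 scale. Over all coding genes at 10 to 100 TPM, 36.2% were higher and 36.1% lower by TMM. Of 23 members of this list tested, 8 were higher and 7 lower, 3 and 7 of them on both scales. The higher count was 4 without GV replicate 2 and 5 without MII replicate 2.

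Spindle and checkpoint genes included strong changes in both directions. Tacc3, which with Ckap5 stabilises spindle microtubules, had 967 and 1084 TPM in GV and 3.2 and 19.9 TPM in MII (−5.22 ± 0.82, adjusted p = 0.00111). Ckap5, its partner and a microtubule polymerase, had 45.1 and 14.4 TPM in GV and 172 and 154 TPM in MII (3.63 ± 0.55). These partners thus moved apart. Bub1 and Bub1b are kinase genes of the spindle checkpoint. Bub1 had 90 and 27.9 TPM in GV and 2.3 and 2.65 TPM in MII (−3.35 ± 0.72), and Bub1b had 418 and 371 TPM in GV and 1057 and 1674 TPM in MII (2.98 ± 0.47). Meikin, the kinetochore protein of meiosis I, had 43 and 37.9 TPM in GV and 0.48 and 0.995 TPM in MII (−4.57 ± 0.62), and Sgol2a, the shugoshin that protects centromeric cohesion, had 8.64 and 3.68 TPM in GV and 56.1 and 41 TPM in MII (4.15 ± 0.47). Cenpe, a kinetochore motor, had 38.1 and 18.6 TPM in GV and 163 and 118 TPM in MII (3.64 ± 0.61), and Tpx2, an activator of Aurora A at the spindle, had 122 and 95.7 TPM in GV and 190.4 and 237 TPM in MII (2.10 ± 0.34). Of 45 members tested, 22 were higher and 13 lower, 15 and 13 of them on both scales, and the median was 0.91 by TMM and −0.02 by log2(TPM + 1).

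Genes of mRNA storage and cytoplasmic polyadenylation went in both directions, with 13 of 38 tested higher and 13 lower. Ybx2, the Y-box protein that binds and stabilises much of the maternal mRNA, had 614 and 486 TPM in GV and 22.3 and 28.7 TPM in MII (−3.15 ± 0.39). Cpeb1, which binds the cytoplasmic polyadenylation element and is degraded during maturation, had 583 and 496 TPM in GV and 41.1 and 55.5 TPM in MII (−2.30 ± 0.37). Pabpc1l, the poly(A)-binding protein of oocytes, had 329 and 409 TPM in GV and 4.47 and 14.1 TPM in MII (−3.97 ± 0.78). Cpsf4l, a gene related to the cleavage and polyadenylation factor Cpsf4, had 1118 and 1558 TPM in GV and 5.13 and 28.1 TPM in MII (−5.13 ± 0.80). Zar1l, a paralog of Zar1, had 701 and 909 TPM in GV and 6.77 and 20.3 TPM in MII (−4.71 ± 0.69), whereas Zar1, a factor that binds maternal mRNAs, did not pass the test at 1011 and 1329.6 TPM in GV and 633 and 655 TPM in MII (0.29 ± 0.44 by TMM, −0.85 on log2(TPM + 1) with a limma adjusted p of 0.0312). Papd4, the cytoplasmic poly(A) polymerase Gld2, rose from 45.2 and 26.8 TPM to 186 and 148 TPM (3.38 ± 0.41), as did Cpeb4. Cpeb1 and Cpeb4, which bind related elements, thus changed in opposite directions. On both scales 6 of the higher and 13 of the lower members were called.

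Of 46 tested genes of deadenylation, decapping and decay, 19 were higher and 9 lower, 13 and 9 of them on both scales, and log2(TPM + 1) called 13 higher and 13 lower. Btg4, the adaptor that brings the CCR4-NOT deadenylase to maternal mRNAs, lies on chromosome 9 from 51060901 to 51119875 (GRCm38). It had 676 and 793 TPM in GV and 6766 and 5095 TPM in MII, with means of 735 ± 83 TPM (SD, n = 2) in GV and 5931 ± 1182 TPM (SD, n = 2) in MII, a log2 fold change of 4.16 ± 0.44 and an adjusted p of 0.000599. Cnot7, a catalytic subunit of CCR4-NOT, had 278 and 143 TPM in GV and 1683 and 982 TPM in MII (3.82 ± 0.50). Cnot10, a subunit of the same complex without catalytic activity, had 44.6 and 43.2 TPM in GV and 0.201 and 1.26 TPM in MII (−4.68 ± 0.80). Subunits of the complex thus went in both directions. Pan2 and Pan3 form the other main deadenylase: Pan2 had 56.7 and 51.4 TPM in GV and 279 and 324 TPM in MII (3.64 ± 0.36), and Pan3 had 22.2 and 29 TPM in GV and 211 and 258 TPM in MII (4.62 ± 0.41). Dcp1a, a cofactor of decapping, had 152 and 108 TPM in GV and 1303 and 1347 TPM in MII (4.52 ± 0.39). Upf1, the helicase of nonsense-mediated decay, had 18.7 and 57.6 TPM in GV and 262 and 478 TPM in MII (4.42 ± 0.63). A pair of exosome exonucleases was lower, Dis3l at 83.4 and 76.3 TPM in GV and 2.29 and 4.69 TPM in MII (−3.31 ± 0.44) and Dis3 at 5.78 and 3.98 TPM in GV and 0.212 and 0.245 TPM in MII (−3.23 ± 0.43). The list's summed level was 3117 and 2753 TPM in GV and 12585.5 and 10564 TPM in MII.

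mRNAs reported by earlier work as stored untranslated in the GV oocyte and translated during maturation were mostly higher in MII. Of 25 tested, 18 were higher and 2 lower, 14 and 2 of them on both scales. The medians were 2.47 by TMM and 1.32 by log2(TPM + 1). Over all genes tested, 17.4% were higher and 22.2% lower. Coding genes at a mean of 100 TPM or more over both stages, a grouping that the MII level enters, had 56.7% higher, 24.9% lower and a median of 1.70 by TMM. The mRNAs of this list include Btg4, Dcp1a, Ccnb1, Tpx2, Bub1b and Oosp1, a gene whose log2 fold change was 2.47 ± 0.39. The list was assembled with earlier results of these data known. Plat, tissue plasminogen activator and the first such mRNA described, had 797 and 1008 TPM in GV and 1233 and 2725 TPM in MII and did not pass the test (2.30 ± 0.83, adjusted p = 0.0523). It was called higher with relative log expression factors (adjusted p = 0.0261), no count filter (3.04e-05), the oocyte libraries alone (0.00762), the replicate block (0.00532) and DESeq2 (0.00285). Dazl, a germ-cell translation regulator, had 196 and 101 TPM in GV and 263 and 255 TPM in MII (1.98 ± 0.47). Its call was lost on log2(TPM + 1) and without GV replicate 2 (1.61, adjusted p = 0.0651).

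The ends of the transcripts were then read, since cytoplasmic polyadenylation depends on short U-rich elements close to the poly(A) signal. For each coding gene the transcript of highest mean TPM was taken from GENCODE M21 (GRCm38), and the last 100 bases were searched on the transcript strand for TTTTAT or TTTTAAT (U written as T), the usual forms of the element. The windows below are 30 bases of genes named in the text, given 5′ to 3′ on the transcript strand with the element and the poly(A) signal (AATAAA or ATTAAA, searched in the last 50 bases) in capitals, and each lies in the 3′ UTR of its transcript. At most 1 element and 1 signal are marked per window where more letters match, and TTTTAAT and AATAAA can overlap. The first set holds higher genes whose end carries the element.
Tet3: gggtgttttAATAAATTTTATatttatttt
Foxn2: ttgcagAATAAAtgtcgTTTTATaacactt
Pan3: tattTTTTAATaaagaattgcagaAATAAA
Ckap5: taagagacTTTTATaAATAAAgtttgcatt
Bub1b: cactgtgtaTTTTATAATAAAatagttttt
Zbed3: tttttttttAATAAAcTTTTATttatctgc
Bcl2l10: tTTTTAATaacttcaaattcttAATAAAtg
Cks1b: ccttgATTAAAggaagttTTTTATaatctt

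The second set holds lower genes in which the window has the poly(A) signal and the element was not found in the last 100 bases.
Psmb7: tcaattaaaataAATAAAtaaaaagacaaa
Npm2: gcctagggccacAATAAAatttgcatgatc
Tarbp2: gagggtataaggAATAAAcatggtgagctt
Padi6: tgccatagagccAATAAAgcatggtattct
Atp5e: attgactatgccAATAAAttaacatggttc

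The third set shows genes that differ from these sets: Fbxo5 and Ybx2 carry the element and are lower, and Ccnb1 and Cnot7 are higher with no element in the last 100 bases of the transcript read here.
Fbxo5: aatgtgagttttTTTTATatctgtgaatac
Ybx2: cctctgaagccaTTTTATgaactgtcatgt
Ccnb1: ctttatgttgctAATAAAcatagttttcga
Cnot7: aaagcttttgtaAATAAAggcttcaaaaat

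The windows of the first set lie at chr6:83362384-83362413 on the minus strand (Tet3), chr17:88490504-88490533 on the plus strand (Foxn2), chr5:147548467-147548496 on the plus strand (Pan3), chr2:91620629-91620658 on the plus strand (Ckap5), chr2:118641556-118641585 on the plus strand (Bub1b), chr13:95337812-95337841 on the plus strand (Zbed3), chr9:75351590-75351619 on the plus strand (Bcl2l10) and chr3:89415474-89415503 on the minus strand (Cks1b). Those of the second set lie at chr2:38588043-38588072 on the minus strand (Psmb7), chr14:70647304-70647333 on the minus strand (Npm2), chr15:102523633-102523662 on the plus strand (Tarbp2), chr4:140727361-140727390 on the minus strand (Padi6) and chr2:174461081-174461110 on the minus strand (Atp5e), and those of the third at chr10:5799226-5799255 on the minus strand (Fbxo5), chr11:69941532-69941561 on the plus strand (Ybx2), chr13:100778656-100778685 on the minus strand (Ccnb1) and chr8:40492550-40492579 on the minus strand (Cnot7). A match of letters is a description and shows no binding.

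Across the 7967 coding genes with a mean of at least 1 TPM and a 3′ UTR of 100 bases or more, 1603 (20.1%) held the element in the last 100 bases. Genes with it had a median log2 fold change of 1.81, with 57.6% higher and 14.9% lower, and the 6364 genes without it had a median of −0.43, with 28.3% higher and 37.1% lower. The medians differed by 2.24, and by 1.77 on log2(TPM + 1). Read the other way, 33.9% of higher genes, 16.7% of genes not called and 9.19% of lower genes held the element. The poly(A) signal also differed, found in the last 50 bases of 86.6% of higher genes, 80.5% of genes not called and 69.6% of lower genes. What part the annotated ends have in the difference was not tested. TGTANATA, the site form bound by Pumilio proteins, stood in the same window in 409 genes, whose median was 0.60, beside 0.0002 in the 7558 genes without it. The 95 genes with both motifs had a median of 2.14, with 68.4% higher and 7.37% lower. The 1508 genes with TTTTAT or TTTTAAT and no TGTANATA had a median of 1.76, with 56.9% higher and 15.4% lower. Genes are not replicates, so these values carry no p.

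Length and base composition moved with the change too. Over 8743 coding genes the median log2 fold change was −1.53 in the quartile with the shortest 3′ UTRs (278 bases or less), −0.70 and 0.29 in the middle quartiles and 1.25 in the quartile with the longest (1548 bases or more). By GC content of the transcript it was 1.25 in the lowest quartile (45.3% or less) and −1.55 in the highest (54.5% or more). By coding length it went from −0.76 in the shortest quartile to 0.68 in the longest. Within the shortest quartile of 3′ UTRs of at least 100 bases, genes with the element had a median of 1.11 and genes without it −1.71. Within the longest quartile the medians were 2.16 and 1.02. Within the quartile of highest GC content they were 1.44 and −1.68. GC content and 3′ UTR length also set the replicates of a stage apart, and coding length did so mainly in GV. The median log2 ratio of replicate 2 to replicate 1 was 0.57 in the highest GC quartile and −0.65 in the lowest within GV, and 0.59 and −0.20 within MII. In the longest and shortest quartiles of 3′ UTRs this ratio was −0.41 and 0.21 within GV, and 0.08 and 0.38 within MII. In the longest and shortest quartiles of coding length it was −0.45 and 0.17 within GV, and 0.17 and 0.24 within MII. For the element the same ratio was −0.10 with and 0.02 without it in GV, and 0.17 and 0.26 in MII. The part of library preparation in the GC and length trends was not tested.

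**Figure D4:**
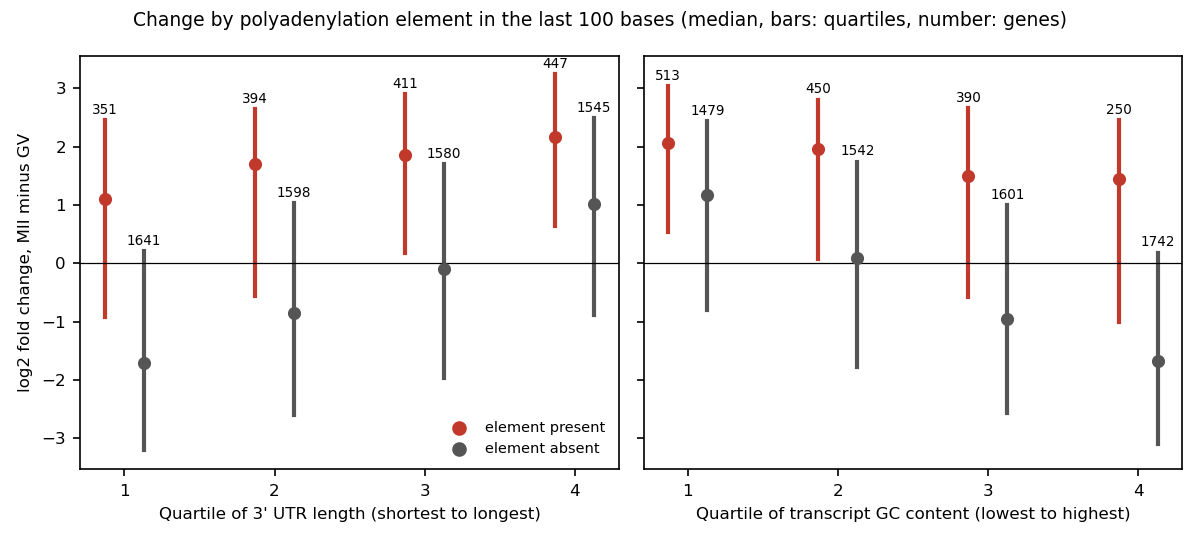
Median log2 fold change between MII and GV (points, bars from the lower to the upper quartile, numbers of genes above) for coding genes with (red) and without (grey) TTTTAT or TTTTAAT in the last 100 bases, within quartiles of 3′ UTR length (left) and of GC content (right). The median with the element is above that without it in every quartile shown, by most in the shortest 3′ UTRs (1.11 against −1.71) and the highest GC content (1.44 against −1.68).

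Of 21 piRNA genes tested, 11 were lower on both scales. Gtsf1, a piRNA factor that binds Piwi proteins, had 1008 and 832 TPM in GV and 12.1 and 21.1 TPM in MII (−4.63 ± 0.46). Tdrd12, a Tudor domain helicase of the pathway, had 251 and 229 TPM in GV and 12.9 and 15.5 TPM in MII (−2.89 ± 0.45). Pnldc1, which trims piRNA precursors, had 24.2 and 22.8 TPM in GV and 0.246 and 0.855 TPM in MII (−4.19 ± 0.64), and Henmt1, which methylates their ends, had 111 and 116 TPM in GV and 6.04 and 6.78 TPM in MII (−2.93 ± 0.50). Tdrd6, a Tudor domain gene, was the 1 member higher by TMM, at 1.65 and 0.543 TPM in GV and 2.15 and 2.06 TPM in MII (2.79 ± 0.67). The summed level of the list went from 2426 and 2037 TPM to 201 and 190 TPM. The call of Tdrd6 was lost on log2(TPM + 1), with a length offset (2.14, adjusted p = 0.0948) and without GV replicate 2 (2.49, adjusted p = 0.0729).

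In the microRNA machinery, Tarbp2, the double-stranded RNA-binding partner of Dicer, had 127 and 180.4 TPM in GV and 2.88 and 5.23 TPM in MII (−4.19 ± 0.48). Xpo5, the export factor for precursor microRNAs, had 32.5 and 19.4 TPM in GV and 3.19 and 2.19 TPM in MII (−2.11 ± 0.45), and Ago2, the slicing Argonaute, had 5.55 and 3.58 TPM in GV and 0.674 and 0.578 TPM in MII (−1.70 ± 0.33). Drosha, the nuclear RNase of the pathway, had 69.7 and 36.9 TPM in GV and 6.38 and 5.81 TPM in MII (−2.10 ± 0.50), with a call lost without MII replicate 1 (−2.19, adjusted p = 0.0511). Lin28a, which binds let-7 precursors, rose from 26.2 and 35.6 TPM to 272 and 225 TPM (4.15 ± 0.63). Ago3, a related Argonaute, had 67.9 and 53.5 TPM in GV and 90.1 and 67.6 TPM in MII and a log2 fold change of 3.75 ± 0.52, which was 1.54 once the length of its transcripts in each library was allowed for. On log2(TPM + 1) its call was lost (0.37, limma adjusted p = 0.453), and its TPM overlapped between the stages. Dicer1, the RNase that makes microRNAs and endogenous siRNAs, had 106 and 35.9 TPM in GV and 130.0 and 90 TPM in MII (1.81 ± 0.48). The call of Dicer1 was lost without GV replicate 2 (1.26, adjusted p = 0.0512), without MII replicate 1 (1.46, adjusted p = 0.0974) and on log2(TPM + 1). Dgcr8, the partner of Drosha, did not pass the test (−0.79 ± 0.36, adjusted p = 0.107). It was called lower on log2(TPM + 1) (limma adjusted p = 0.00401) and without MII replicate 2 (−1.35, edgeR adjusted p = 0.0318). Coding genes at 10 to 100 TPM had 36.2% higher and 36.1% lower by TMM. Of 20 members of this list tested, 7 were higher and 5 lower, 3 and 4 of them on both scales. The higher count was 4 without GV replicate 2 and 4 without MII replicate 1.

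Most mRNAs of cytosolic ribosomal proteins fell, and those of translation initiation gave mixed values. Of 85 cytosolic ribosomal protein genes tested, 75 were lower on both scales and 2 were higher, 1 of them on both scales, with a median of −3.20. Their summed level was 26099.9 and 35972 TPM in GV and 4304 and 5111 TPM in MII. Rps4x, a small subunit protein, had 862 and 907 TPM in GV and 3.49 and 23.5 TPM in MII (−4.83 ± 0.83). Rpl21, a large subunit protein, had 309 and 358 TPM in GV and 1.5 and 9.37 TPM in MII (−4.80 ± 0.75). Rps27l, a relative of Rps27, was the member higher on both scales, at 266 and 263 TPM in GV and 876 and 639 TPM in MII (2.67 ± 0.33). Ribosomal protein genes have many near-identical pseudogenes, among which the counting may split reads. Of 38 translation initiation genes, 9 were higher and 18 lower, 5 and 18 of them on both scales. Eif3m, a subunit of initiation factor 3, had 254 and 189.8 TPM in GV and 0.979 and 5.19 TPM in MII (−4.96 ± 0.82), and Eif1ax, which acts in start codon selection, had 84.6 and 125 TPM in GV and 1.89 and 2.7 TPM in MII (−3.97 ± 0.57). Paip1, which links the poly(A)-binding protein to initiation, had 379 and 369 TPM in GV and 2463 and 1925 TPM in MII (3.90 ± 0.45), while Paip2, which inhibits that protein, had 637 and 438 TPM in GV and 9.49 and 11.5 TPM in MII (−4.53 ± 0.40). The activator and the inhibitor thus moved in opposite directions.

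Nuclear and mitochondrial genes of the respiratory chain moved apart. Of 78 nuclear genes of oxidative phosphorylation tested, 61 were lower on both scales and 3 were higher by TMM only, with a median of −2.95. Sdhd, a membrane anchor of complex II, had 207 and 212 TPM in GV and 1.56 and 3.98 TPM in MII (−5.04 ± 0.57). Ndufv1, a subunit of complex I, had 63.1 and 97.9 TPM in GV and 0.452 and 2.13 TPM in MII (−4.74 ± 0.71). Atp5o, of the ATP synthase stalk, had 247 and 288 TPM in GV and 1.94 and 7.48 TPM in MII (−4.60 ± 0.68). Atp5e, another subunit of the ATP synthase, had 646 and 851 TPM in GV and 13.6 and 27.3 TPM in MII (−4.01 ± 0.48). All 13 mRNAs of the mitochondrial genome were higher on both scales, with a median of 3.89. mt-Co1, a subunit of complex IV, had 2423 and 2815 TPM in GV and 8031 and 12709 TPM in MII (3.15 ± 0.44), and mt-Nd3, a subunit of complex I, had 48.5 and 39.8 TPM in GV and 663 and 757 TPM in MII (5.18 ± 0.46). Mitochondrial transcripts made up 0.746% and 0.819% of counts in GV and 3.27% and 3.68% in MII. Mitochondrial mRNAs carry short tails of their own, and whether the libraries selected poly(A) RNA is not given.

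Most proteasome genes were lower, and genes of glycolysis went in both directions. Of 38 proteasome genes tested, 23 were lower on both scales and 2 were higher, 1 of them on both scales, with a median of −2.21. Leaving out any 1 of the 4 oocyte libraries left 1 higher. Psmb7, a catalytic core subunit, had the lowest log2 fold change of the list, −5.47 ± 0.81, with 378 and 359 TPM in GV and 1.2 and 5.96 TPM in MII. Psmc2, an ATPase of the cap, had 151 and 154 TPM in GV and 0.406 and 3.63 TPM in MII (−5.00 ± 0.88), and Psmd3, a non-ATPase subunit of the cap, went up from 83.2 and 127 TPM to 266 and 393 TPM (2.78 ± 0.42). Among all coding genes at 10 to 100 TPM the shares were 36.2% higher and 36.1% lower by TMM. Of 27 genes of glycolysis and pyruvate use, 8 were higher and 9 lower, 2 and 9 of them on both scales. The lower count was 5 without GV replicate 2 and 4 without MII replicate 1, and the higher count was 2 without GV replicate 1 and 4 without each of the others. Ldhb, lactate dehydrogenase B and among the most abundant mRNAs of GV oocytes, had 6017 and 6745 TPM in GV and 977 and 1130.1 TPM in MII (−1.44 ± 0.34), and it no longer passed without MII replicate 1 (−1.40, adjusted p = 0.0733). Pkm, pyruvate kinase, had 339 and 485 TPM in GV and 12.5 and 20.5 TPM in MII (−3.48 ± 0.55), and Gpi1, glucose-6-phosphate isomerase, had 104 and 139 TPM in GV and 4.72 and 6.16 TPM in MII (−3.37 ± 0.48). Mpc1, a subunit of the mitochondrial pyruvate carrier, rose by TMM (1.93 ± 0.32) at 70.8 and 67.5 TPM in GV and 122 and 109 TPM in MII. Pyruvate rather than glucose is the main fuel of the oocyte.

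Chromatin factors that act on the parental genomes after fertilisation changed in both directions. Npm2, the histone chaperone that unpacks sperm chromatin, had 2603 and 3136 TPM in GV and 48.6 and 106 TPM in MII (−4.04 ± 0.73). Chaf1a and Chaf1b, subunits of the chromatin assembly factor, fell by 3.87 and 4.21 on the log2 scale. Hira, the chaperone of histone H3.3, had 26.1 and 16.9 TPM in GV and 0.937 and 1.87 TPM in MII (−3.21 ± 0.47). Kdm1a, a histone demethylase, had 41.2 and 42.8 TPM in GV and 134 and 162 TPM in MII (2.98 ± 0.41), and Suz12, of the Polycomb complex that methylates histone H3, had 81.5 and 33.1 TPM in GV and 280.5 and 179.8 TPM in MII (2.98 ± 0.56). H1foo, the linker histone of oocytes, had 4175 and 7095 TPM in GV and 10478 and 17229 TPM in MII (2.46 ± 0.57). Its call was lost without GV replicate 1 (1.96, adjusted p = 0.0571) and without MII replicate 2 (1.89, adjusted p = 0.0689). Of 39 members tested, 20 were higher and 9 lower, 10 and 9 of them on both scales, and the higher count was 13 without GV replicate 2 and 13 without MII replicate 2.

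Transcript use within genes changed in 660 of 11953 genes with at least 2 tested transcripts (5.52%; diffSpliceDGE of edgeR, Simes adjusted p under 0.05). Of these, 317 had at least 10 TPM in both stages, and in 94 of the 317 the share of 1 transcript moved by at least 30 percentage points. Hbs1l, a ribosome rescue factor, had 2 coding transcripts: 15.4% and 17.2% in GV and 97.5% and 95.6% in MII of the gene's TPM came from Hbs1l-202. Plekha8, a lipid transfer protein, took 27.5% and 25.6% in GV and 99.9% and 99.9% in MII from its long transcript Plekha8-001 of 6739 bases, and its short transcript of 1838 bases made up the rest. Rpl13a, a ribosomal protein, took 14.8% and 13.4% in GV and 98.8% and 84.4% in MII from its main coding transcript. Its retained-intron form Rpl13a-008 made up 48.3% and 30.5% in GV and 0% and 11.5% in MII. The nonsense-mediated decay forms Rpl13a-017 and Rpl13a-009 had a lower share in both MII libraries than in either GV library. Gnb4, a G protein beta subunit, took 6.51% and 3.74% in GV and 87.8% and 76% in MII from the coding transcript Gnb4-001. Ipmk, an inositol phosphate kinase, took 82.9% and 84.5% in GV and 8.14% and 9.35% in MII from a noncoding transcript of 522 bases. Dnajb6, a cochaperone, took 83.9% and 74.4% in GV and 4.17% and 7.3% in MII from Dnajb6-002. These 6 genes were chosen for the size of the change in share. Gene-level values of such genes depend on transcript length: Ipmk was higher by counts (2.35 ± 0.34), at 0.097 with a length offset and at −1.07 on log2(TPM + 1). Rpl13a did not pass the gene test (−0.16 ± 0.37), was at −1.02 with a length offset and was called lower on log2(TPM + 1) (−2.18, limma adjusted p = 0.00276). Gnb4 and Dnajb6 did not pass it either (−0.27 ± 0.30 and −0.46 ± 0.38) and were called lower on log2(TPM + 1), at −2.85 and −2.05. Leaving out 1 oocyte library left 247 to 364 genes called for transcript use: 364 without GV replicate 1, 294 without GV replicate 2, 247 without MII replicate 1 and 270 without MII replicate 2. kallisto splits reads among overlapping transcripts, and the error of that split is not in the tables.

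**Figure D5:**
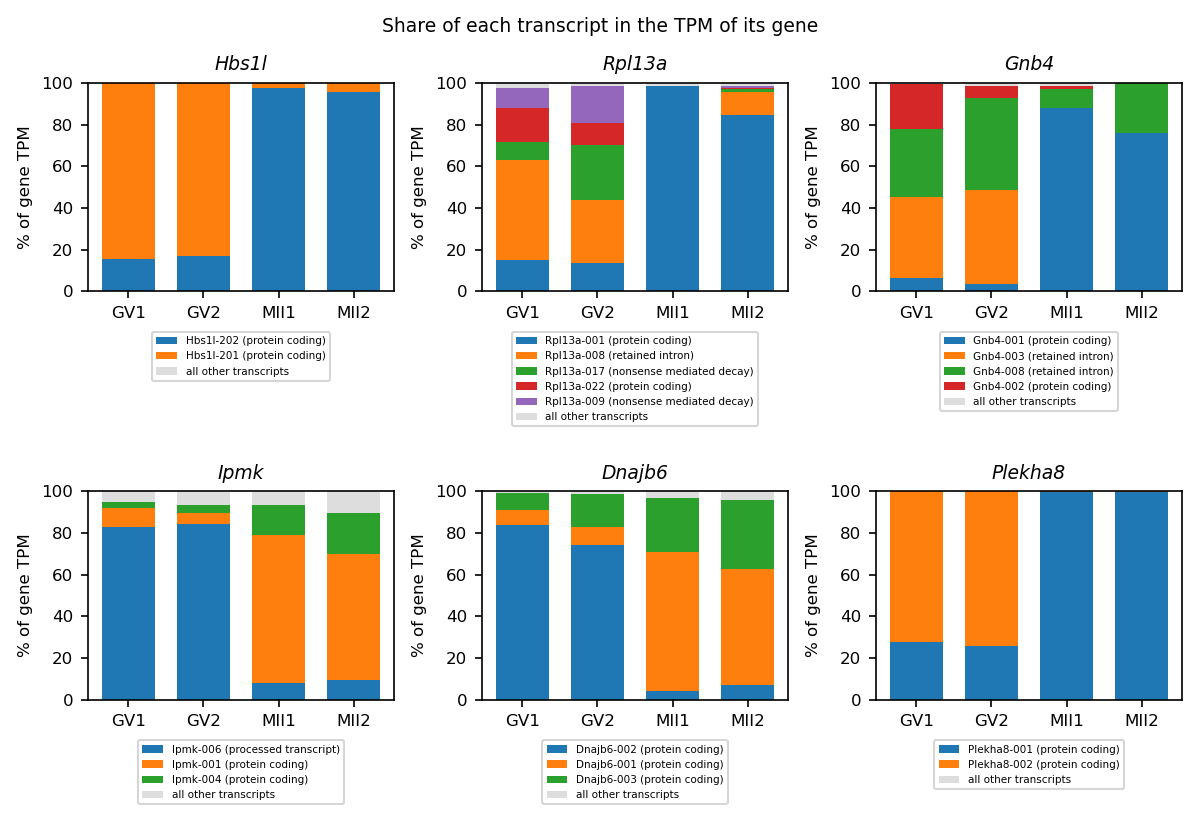
Share of each transcript in the TPM of its gene (vertical, percent) in the 4 oocyte libraries (horizontal) for the 6 genes with the largest change among those called and at 10 TPM or more in both stages. The leading transcript differs between the stages in each gene, as in Hbs1l, where Hbs1l-202 goes from 15.4% and 17.2% in GV to 97.5% and 95.6% in MII.

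Over all coding genes, transcripts annotated as retained introns made up 3.87% and 4.34% of TPM in GV and 2.23% and 2.53% in MII. Transcripts annotated as coding made up 87.3% and 86.5% in GV and 90.3% and 89.6% in MII. Transcripts annotated as processed transcripts were also lower, at 6.07% and 6.22% in GV and 4.56% and 4.52% in MII. Those annotated for nonsense-mediated decay were slightly higher, at 2.77% and 2.92% in GV and 2.93% and 3.29% in MII. The stages did not overlap in any of these shares.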

How the data were processed

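RNA of 2 GV and 2 MII oocyte libraries was compared, and the other 4 libraries of the series entered the count filter, the scaling factors and the estimate of the spread. Per the submitters' processing notes, the authors ran kallisto 0.43 on mm10, and each deposited table gives an estimated count for every transcript. TPM values stand beside them in the deposited tables, and both were summed per gene over 117667 transcripts of 48440 genes. The annotation release used was not given in the sources used here, and positions and transcript ends came from GENCODE M21 on GRCm38, matched by transcript ID and version. Estimated counts were rounded, filtered with filterByExpr and scaled by TMM, and edgeR 4.0.16 (R 4.3.3) fitted a robust quasi-likelihood model with 1 mean per group to the 8 libraries, leaving 4 residual degrees of freedom. Benjamini-Hochberg adjustment ran over all 25045 genes at 0.05, and every adjusted p of a gene is from this edgeR fit or a named alternative. The SE was derived as the size of the log2 fold change divided by the square root of F. Labels give no animal or pool for a replicate, so a p measures only the spread between these libraries, and it does not cover the error of assigning reads to transcripts. The tests were also run on simulated counts in which few genes changed, as many up as down. That run cannot check the scaling between the stages, and its outcome is not given here.

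Genes were named by a rule: the 12 highest and 12 lowest coding changes at 10 TPM or more, the 10 most abundant genes of each stage, up to 4 called members per direction and the 2 most abundant of each of 24 lists, a set of anchor genes, the 5 highest and 5 lowest noncoding changes, and the 6 largest changes in transcript share. Members and lists were chosen with earlier results of these data known, so lists are described by counts and medians and not tested. The lists cover the groups described in the text and markers of other cell types. The 12 alternatives were relative log expression factors, DESeq2 1.42.0, no count filter, the oocyte libraries alone, replicate number as a block, a length offset, limma 3.58.1 on log2(TPM + 1), coding genes alone, and each oocyte library left out.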

Additional observations from a re-analysis of the deposited data

How the results depend on the processing

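Counts of called genes stayed within 1.5 times the reported 4357 higher and 5572 lower under every alternative but limma on log2(TPM + 1), which called 2408 higher and 8164 lower, so that 22.8% of calls were higher in place of 43.9%. Each oocyte library left out in turn gave 3239 to 3445 higher, 3769 to 4872 lower and 247 to 364 genes called for transcript use, in place of 660. A left-out library leaves a stage with 1 library, which is then assumed to vary like the other groups. Of the calls reported, 73.2% were made in the same direction on log2(TPM + 1), and between 70.0% and 79.1% without 1 library. The oocyte libraries alone left 19183 genes to test. Against TMM, the median change over genes shifted by 0.21 with relative log expression, 0.22 with DESeq2 and −0.21 with no count filter. With the replicate number as a block, 4871 genes were higher and 6244 lower, and 821 were called for transcript use. The labels do not say that the numbers pair the libraries, and the difference between replicates correlated at 0.31 between the stages across genes. Of 212 called genes that the rule names, 165 kept their call under every alternative that tested them and 46 lost it under at least 1. Ipmk took the other sign on log2(TPM + 1) at −1.07. Of genes not called, Mos was at −0.14 there, and Zar1 was at −0.85 there and between −0.061 and 0.56 without 1 library. Rpl13a was at −2.18 on log2(TPM + 1) (called lower), −1.02 with a length offset, 0.052 with relative log expression, 0.052 with DESeq2 and between −0.62 and 0.28 without 1 library. The cause of these shifts was not tested.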

Other observations

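Outside coding genes, GV and MII RNA differed in the share of TPM that some classes held. Models of the class TEC (loci awaiting experimental support) held 6.55% and 6.04% of TPM in GV and 0.274% and 0.379% in MII. The highest of them, Gm42887, on chromosome 5 from 69503842 to 69504960 (GRCm38), had 12657 and 11577 TPM in GV and 219 and 431 TPM in MII (−4.04 ± 0.68). Gm37110 and Gm44183 carry values equal to each other, 7653 and 7319.7 TPM in GV and 68.5 and 184 TPM in MII (−4.70 ± 0.77). Small and structured RNAs held 3.10% and 4.61% of TPM in GV and 0.478% and 0.735% in MII. These sums do not describe most genes of either class. Of 1372 TEC genes tested, 2.41% were higher and 5.39% lower, with a median log2 fold change of −0.53. Of 589 small and structured RNA genes tested, 1.87% were higher and 5.94% lower, with a median of 0. All genes tested had 17.4% higher, 22.2% lower and a median of −0.53. All 22 mitochondrial tRNA genes were higher in MII in the edgeR test, with a median log2 fold change of 5.34. RP23-323L3.5, a long intergenic RNA on chromosome 7 from 46967711 to 46975911, had 288 and 591 TPM in GV and 9609 and 9859 TPM in MII (5.61 ± 0.57), which placed it among the 10 most abundant genes of MII. Gm6158, a pseudogene, had 14.9 and 15.4 TPM in GV and no count in either MII library.

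Of 7 tested genes known for a burst at the 2-cell stage, 3 were lower, 1 of them on both scales. Zscan4d, of the Zscan4 cluster of near-identical copies, had 17.5 and 7.26 TPM in GV and 0.323 and 0.514 TPM in MII (−3.68 ± 0.70). Tcstv1, another such gene, did not pass the test at 126 and 115 TPM in GV and 32.9 and 36.4 TPM in MII (−0.63 ± 0.70). By TMM, 17.4% of all genes tested were higher and 22.2% lower. Among cumulus and granulosa markers 4 of 19 were higher and 6 lower, 1 and 1 of them on both scales. The lower count was 1 without GV replicate 2, 1 without MII replicate 1 and 3 without MII replicate 2. Cyp19a1, the aromatase gene, was higher at 23.4 and 18.3 TPM in GV and 47.4 and 44.5 TPM in MII (2.30 ± 0.52), and Inha and Amh, hormones of granulosa cells, were lower, Amh at 0.634 and 3.19 TPM in GV and 0 and 0.00575 TPM in MII with its call lost on log2(TPM + 1) (limma adjusted p = 0.0515). Without GV replicate 2, Inha had an adjusted p of 0.603, and without MII replicate 1 of 0.114.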
